A study of Mus musculus with 9 samples.

Results

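DNA replication and nucleotide supply genes were followed in HPC7, a mouse line of immature blood progenitors, after expression of the transcriptional repressor Snai1. The set was a fixed list of 44 genes, picked by name for what their proteins do, with earlier results of these data known. They were matched through their Entrez identifiers, of 27179 gene identifiers in the deposited count table. All 44 were found and all 44 were among the 12484 genes that passed the filter on low counts, with 351 to 14812 counts per gene and library. The 3 groups of 3 libraries were compared, all of HPC7 cells carrying a green fluorescent MSCV retrovirus. The vector held no gene in the empty vector group, wild-type Snai1 cDNA in the second, and in the third a Snai1 cDNA with an F>A change at amino acid 5, which weakens the contact with the histone demethylase Lsd1. All groups grew in RPMI with 2-mercaptoethanol, 10% fetal calf serum and stem cell factor at 100 ng/ml. Fluorescent cells were sorted 1 week after infection. The viral promoter, not the promoter of the cell's own gene, drives Snai1 in this model, and each library is a bulk of sorted cells from a line that depends on stem cell factor.

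Before a cell divides, the origin recognition complex with Cdc6 and Cdt1 loads rings of the MCM helicase onto DNA. Cdc45 and the GINS complex then switch the helicase on, primase and polymerase alpha begin each strand, and polymerases delta and epsilon extend it with the help of the PCNA clamp and its RFC loader. Ribonucleotide reductase, thymidylate synthase and thymidine kinase provide deoxynucleotides, and many of these genes are known targets of E2F transcription factors, whose activity rises as cells pass from G1 into S phase. Growth factor-dependent progenitors in culture cycle continually and express the whole set, while terminally differentiating blood cells switch it off.

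The Snai1 counts, which include the vector's transcript, matched the labels. Snai1 was at 1.06, 0.722 and 0.698 CPM (counts scaled to a common library size by TMM, hence comparable between libraries) with empty vector, at 425, 488 and 562 CPM with wild-type Snai1, and at 471, 415 and 493 CPM with mutant Snai1. Total counts ran from 18332451 to 20860314 per library. All 12 HPC7 markers on the list, among them Kit, Cd34, Gata2 and Tal1, were above 1 CPM in every group. Wild-type replicate 1 stood apart from the other wild-type libraries, with a chi-square per degree of freedom over genes of 46.3 and 54.8 against 5.27 between replicates 2 and 3. It was the lowest library of its group for 36 of the 44 genes. Empty vector replicate 1 stood apart too, with 71.6 and 69.7 against 4.9, and 1 gene without a symbol took 3.62% of its counts. In replicates 2 and 3 the top gene took 0.758% and 0.846%. The chi-square sums over raw counts, so the gene without a symbol adds to these values, and its part was not worked out. Correlations of log2 CPM between libraries were 0.993 to 0.995 within empty vector and 0.98 to 0.995 within wild-type Snai1. What a replicate is (its own transduction, culture or only its own library) is not in the labels, so the p-values rest on a spread that may be technical.

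Promoters of 37 of the 44 genes were present in the RefSeq table used here (GRCm38.p6, 300 bases from 250 before to 50 after each transcript start). An exact E2F-type sequence on either strand, TTTCCCGC or TTTGGCGC, was found in 12 of the 37 genes (32.4%), against 345 of 9568 tested genes with a promoter window (3.61%). CCAAT, the box bound by NF-Y, was in 24 of the 37 (64.9%, against 43.1% of tested genes). CAGGTG, the E-box that Snai1 is known to bind, was in 5 of them (13.5%, against 20.3%): Orc6, Tyms, Rfc1, Pold3 and Prim1. A match is only a description of these letters. The 180 bases before the start are shown for 3 genes that fell with wild-type Snai1 (Mcm6, Mcm7 and Pold3) and for 3 that rose (Rrm1, Rrm2 and Orc6), as examples of either direction from several role groups. The sequences read 5′ to 3′ on the gene's own strand, and capitals mark every match to 1 of these motifs. The Mcm6, Mcm7 and Pold3 windows are chr1:128359706-128359885, chr5:138171884-138172063 and chr7:100121503-100121682, all on the minus strand. Those of Rrm1, Rrm2 and Orc6 are chr7:102441515-102441694, chr12:24708074-24708253 and chr8:85299452-85299631, all on the plus strand.
Mcm6: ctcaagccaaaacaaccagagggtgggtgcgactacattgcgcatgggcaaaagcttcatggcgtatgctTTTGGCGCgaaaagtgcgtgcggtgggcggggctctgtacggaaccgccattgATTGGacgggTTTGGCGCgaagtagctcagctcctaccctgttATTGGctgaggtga
Mcm7: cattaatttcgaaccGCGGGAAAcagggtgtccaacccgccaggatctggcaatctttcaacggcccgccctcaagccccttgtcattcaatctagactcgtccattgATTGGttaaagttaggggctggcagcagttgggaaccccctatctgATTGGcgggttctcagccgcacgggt
Pold3: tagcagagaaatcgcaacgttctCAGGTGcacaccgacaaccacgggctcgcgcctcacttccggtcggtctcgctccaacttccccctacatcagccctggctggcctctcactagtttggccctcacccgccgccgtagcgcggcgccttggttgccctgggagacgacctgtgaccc
Rrm1: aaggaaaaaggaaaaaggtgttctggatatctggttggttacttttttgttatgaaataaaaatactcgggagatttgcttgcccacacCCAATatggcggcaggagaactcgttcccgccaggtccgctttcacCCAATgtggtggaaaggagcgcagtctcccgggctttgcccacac
Rrm2: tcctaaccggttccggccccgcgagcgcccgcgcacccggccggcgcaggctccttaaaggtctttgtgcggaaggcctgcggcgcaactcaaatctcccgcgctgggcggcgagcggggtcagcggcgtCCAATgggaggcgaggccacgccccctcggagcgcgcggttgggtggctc
Orc6: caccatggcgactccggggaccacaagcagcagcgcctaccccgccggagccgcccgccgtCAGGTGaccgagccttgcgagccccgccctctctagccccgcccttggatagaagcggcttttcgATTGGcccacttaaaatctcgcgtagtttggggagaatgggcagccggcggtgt

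Positions are those of a match's left end, with 0 at the first transcribed base. Mcm6 carries the TTTGGCGC form at 2 places, positions -110 and -47, each followed by a CCAAT box on the opposite strand. Mcm7 has the reverse of TTTCCCGC at -165 and CCAAT boxes at -72 and -26, and the window of its other RefSeq start has no E2F match. Pold3 has CAGGTG at -157, and its E2F match at 17 lies outside the stretch shown. Rrm1 has CCAAT boxes at -91 and -45 and Rrm2 has 1 at -50, and neither window holds an exact E2F match. Orc6 has CAGGTG at -119 and a CCAAT box at -54. Of the 12 genes with an E2F match, 1 (Cdc6) was called higher with wild-type Snai1 than with empty vector (adjusted p under 0.05 in edgeR) and 3 (Mcm6, Mcm7 and Pold3) lower, where 25.2% of all tested genes were called higher and 24.3% lower. Of the 25 without a match, 11 were called higher and 2 lower. Only the exact letters TTTCCCGC and TTTGGCGC were searched, so genes counted as without a match may hold other E2F sequences. Of the 345 tested genes with an E2F match 21.4% were called higher and 26.7% lower, and of the 9223 with a window and no match 26% and 24.6%. These counts were made after the values were seen and were not tested.

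The contrast of wild-type Snai1 with empty vector asks how replication genes respond to Snai1 in HPC7 cells. They did not move as a block: 16 rose, 5 fell and 23 did not pass the test, and no gene reached a 2-fold change. Called here means an adjusted p under 0.05 in edgeR's quasi-likelihood test with Benjamini-Hochberg adjustment over all 12484 genes. Of all tested genes 25.2% were called higher and 24.3% lower, together 49.4%, and the 21 called members are 47.7% of the 44. The share called is therefore near that of all genes. The median log2 fold change was 0.06 (all genes 0), and the median size of a change without regard to sign was 0.14, against 0.29 for all tested genes. Called rises went up to 0.58 for Orc1 and called falls to -0.39 for Rfc4. With upper-quartile scaling the split was 13 higher and 7 lower (65% higher, against 76.2% in the TMM fit) and the median was 0. Without wild-type replicate 1 the counts were 18 and 5, and without empty vector replicate 1 they were 12 and 5. The median was 0.11 without the former library and 0.01 without the latter, the ends of its range when 1 library was left out. In bulk RNA, fewer cells in S phase and less transcript per cell cannot be told apart.

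**Figure D1:**
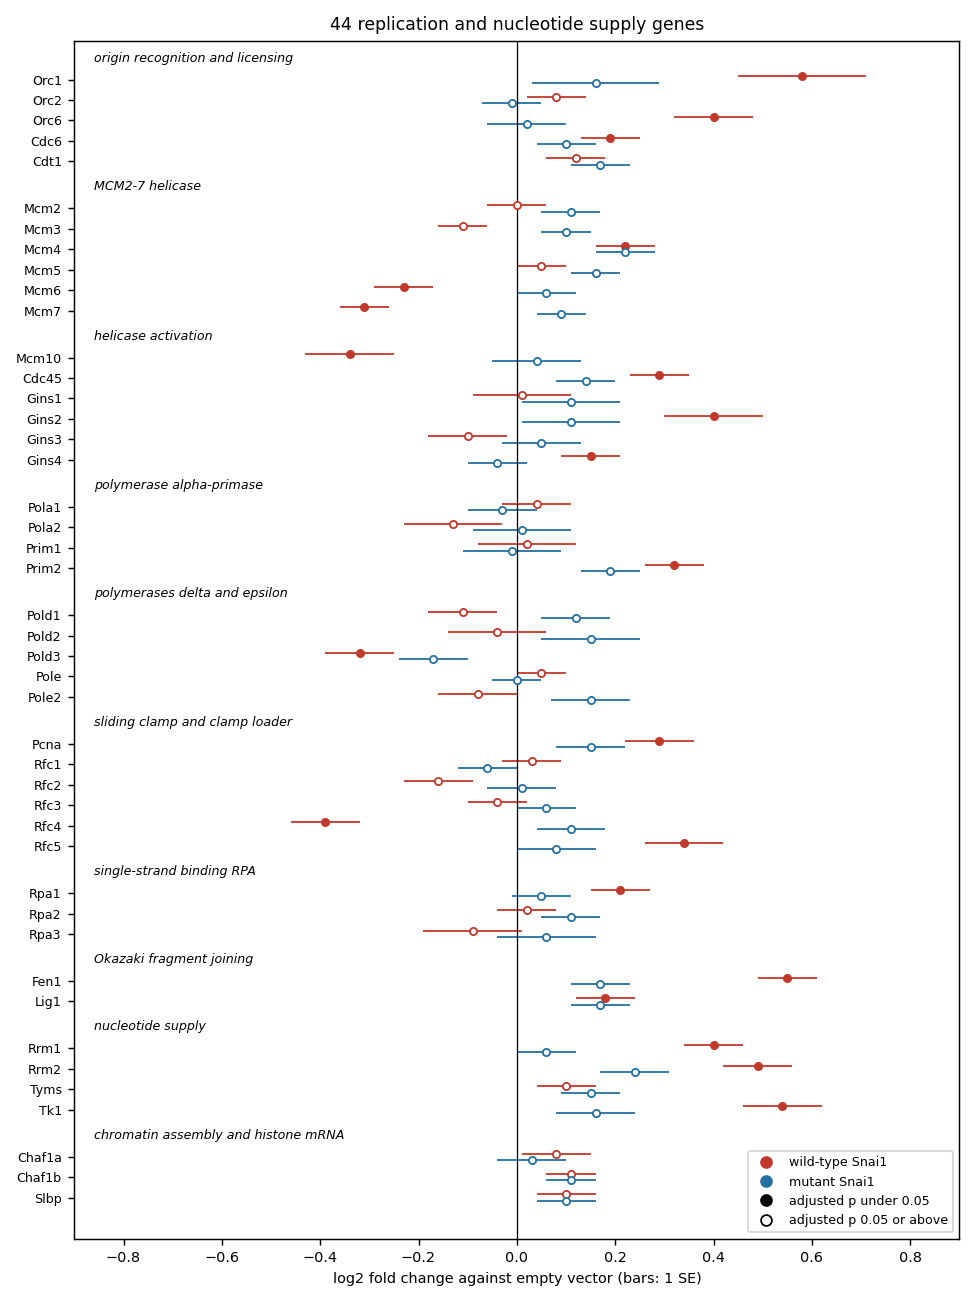
Log2 fold change against empty vector of each of the 44 genes, grouped by role, for wild-type Snai1 (red) and mutant Snai1 (blue), with bars of 1 SE from the edgeR fit and filled points for an adjusted p under 0.05. Wild-type values spread from -0.39 to 0.58 with 21 filled points, while mutant values lie between -0.17 and 0.24 with 0 filled points.

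Transcripts of several blood lineages moved with the same contrast. The sums of the macrophage, neutrophil, megakaryocyte, mast cell and HPC7 lists rose, and those of the erythroid, lymphoid and fibroblast lists fell. The summed level of 10 macrophage markers was 18.4 to 20.4 CPM with empty vector, 205 to 338 CPM with wild-type Snai1 and 18.9 to 22.7 CPM with the mutant, and 3, 7 and 5 of the 10 were above 1 CPM in a group. C1qa was at 0 counts in every library. The sum of 8 neutrophil markers was 2.98 to 3.22, 73.1 to 171 and 2.5 to 4.64 CPM in the same order, with 2, 4 and 2 above 1 CPM. Most of the wild-type neutrophil sum was Lcn2, at 53.5, 84.7 and 111 CPM, with Mmp9 at 15.2, 17.6 and 37 CPM. Mmp8, Ngp and S100a8 were at 0 counts in every empty vector and mutant library. With wild-type Snai1 Mmp8 was at 1.94, 9.06 and 20.9 CPM, but S100a8 stayed at 0.0498, 0.147 and 0 CPM. Ngp and S100a9 were near 0 there too, Camp reached 1 CPM, and Ltf was at 0.881 to 1.79 CPM. Of the 7 tested macrophage markers 6 rose and 1, Fcgr1, fell (-0.93), and of 4 tested neutrophil markers 3 rose. Markers of other lineages moved too: 3 of 4 tested erythroid markers fell, 2 of 4 tested megakaryocyte markers rose and 1 fell (Pf4 1.89, Gp9 -1.96), and the mast cell gene Cpa3 rose by 0.29. The megakaryocyte sum was 606 to 668 CPM with empty vector and 734 to 1050 CPM with wild-type Snai1. For mast cell markers the sums were 2740 to 3110 and 3490 to 3800 CPM, and for HPC7 markers 7750 to 8010 and 8470 to 10100 CPM. Single HPC7 markers went both ways, with 3 of 12 higher and 4 lower, where 25.2% of all tested genes were called higher and 24.3% lower. Flt3 was at 33.3, 30 and 23.5 CPM with empty vector and at 2.14, 1.47 and 2.11 CPM with wild-type Snai1, and Runx1 went from 152 to 174 CPM down to 80.1 to 88.9 CPM. Cd34 was at 2110 to 2180 CPM and then at 2830 to 4100 CPM. The part of such marker changes in the replication values was not tested.

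Of the 4 nucleotide supply genes, Rrm1, Rrm2 and Tk1 rose with wild-type Snai1 and Tyms did not pass the test, where 25.2% of all tested genes were called higher. Rrm2, the small subunit of ribonucleotide reductase, which limits the enzyme in S phase, was at 126, 125 and 117 CPM with empty vector, 162, 171 and 185 CPM with wild-type Snai1, and 152, 133 and 151 CPM with the mutant. All 3 wild-type libraries lay above all others, a log2 fold change of 0.49 (SE 0.07) over empty vector with an edgeR adjusted p of 0.000244. Rrm1, the large catalytic subunit, was at 368, 356 and 361 CPM, then 439, 485 and 505 CPM, then 390, 360 and 383 CPM in the same group order. Its wild-type values also stood clear of the other groups, with a log2 fold change of 0.40 (SE 0.06) and an edgeR adjusted p of 0.00041. Tk1, thymidine kinase of the salvage route, was at 50.2, 58.7 and 55.7 CPM, then 73.8, 84.4 and 80.8 CPM, then 64.9, 59.5 and 59.2 CPM. The Tk1 groups with and without wild-type Snai1 did not overlap (log2 fold change 0.54, SE 0.08, edgeR adjusted p = 0.000276). Tyms, which makes thymidylate de novo, stayed below the threshold at 0.10 (SE 0.06, edgeR adjusted p = 0.207).

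**Figure D2:**
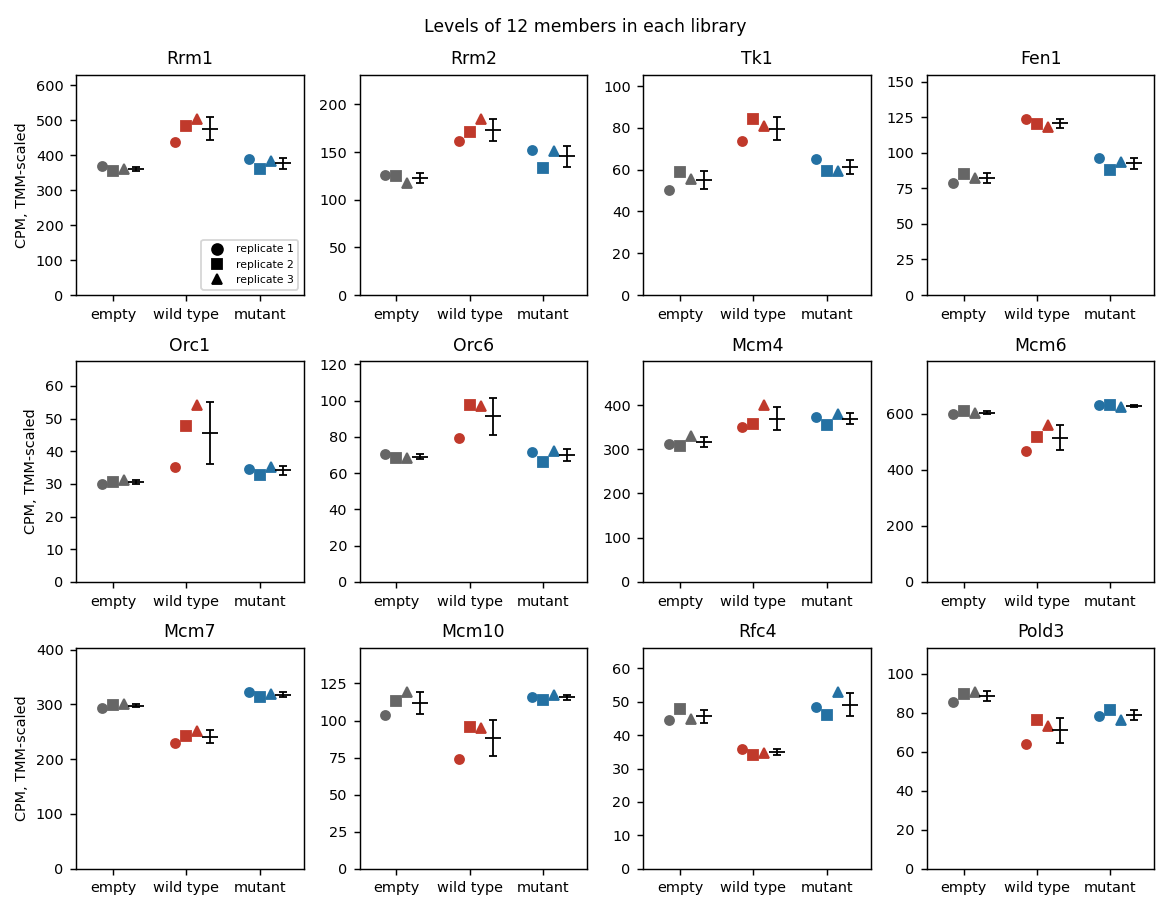
TMM-scaled CPM of 12 of the genes in each of the 9 libraries, with a marker shape per replicate number and the mean with 1 SD of the 3 libraries of a group beside the points; axes start at 0. Wild-type libraries lie above both other groups for Rrm1, Rrm2, Tk1, Fen1, Orc1 and Orc6, below both for Mcm6, Mcm7, Mcm10, Rfc4 and Pold3, and beside the mutant libraries for Mcm4.

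Okazaki fragment joining followed the same direction, with both genes higher (25.2% of all tested genes were called higher). Fen1, the flap endonuclease that trims the RNA primers, was at 78.6, 85.3 and 82.5 CPM with empty vector, 124, 120 and 118 CPM with wild-type Snai1 and 96, 88.2 and 93.3 CPM with the mutant. It had the smallest adjusted p of the 44 (2.64e-05 in edgeR), with a log2 fold change of 0.55 (SE 0.06) and no overlap between any of the groups. Lig1, the ligase that seals the nicks, was at 128, 138 and 138 CPM, then 145, 149 and 162 CPM, then 158, 148 and 149 CPM, so wild-type and mutant libraries overlapped while both lay above empty vector. Its rise of 0.18 (SE 0.06, edgeR adjusted p = 0.0329) lost its call in 9 of 16 alternative fits, with adjusted p up to 0.151, among them those without empty vector replicate 1 or 2, wild-type replicate 3 or mutant replicate 3.

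Origin recognition and licensing genes rose where they were called, with 3 of 5 higher, against 25.2% of all tested genes. Orc1, the largest subunit of the origin recognition complex and an ATPase, was at 29.9, 30.6 and 31.1 CPM with empty vector, 35.3, 47.7 and 54 CPM with wild-type Snai1 and 34.6, 32.7 and 35.2 CPM with the mutant. The wild-type libraries varied widely for this gene, and replicate 1 lay just above the mutant libraries. The log2 fold change was 0.58 (SE 0.13, edgeR adjusted p = 0.00384), or 0.74 without wild-type replicate 1. Orc6, the smallest subunit, was at 70.6, 68.5 and 68.2 CPM, then 79.4, 97.3 and 97.1 CPM, then 71.6, 65.9 and 72.2 CPM. All wild-type libraries were highest, and empty vector and mutant overlapped (0.40, SE 0.08, edgeR adjusted p = 0.00229). Cdc6, a loading ATPase, was higher by 0.19 (SE 0.06, edgeR adjusted p = 0.0315), a call lost in 10 of 16 alternatives (adjusted p up to 0.122), including those without any 1 of the empty vector libraries, wild-type replicate 2 or mutant replicate 1. Cdt1, which loads the rings with Cdc6, had 0.12 and Orc2 0.08, neither past the threshold (edgeR adjusted p 0.113 and 0.277).

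The genes of the MCM2-7 helicase, a ring of 6 different subunits, did not change evenly. Mcm4 rose, Mcm6 and Mcm7 fell, and Mcm2, Mcm3 and Mcm5 did not pass the test. That is 50% called, near the 49.4% of all tested genes, where 25.2% were called higher and 24.3% lower. Mcm7 was at 294, 299 and 301 CPM with empty vector, 229, 242 and 252 CPM with wild-type Snai1 and 322, 313 and 319 CPM with the mutant. The 3 groups did not overlap, with wild type lowest and mutant highest, and the log2 fold change of wild type against empty vector was -0.31 (SE 0.05, edgeR adjusted p = 0.000596). Mcm6 was at 598, 609 and 601 CPM, then 468, 518 and 558 CPM, then 629, 629 and 624 CPM, in the same order of groups (-0.23, SE 0.06, edgeR adjusted p = 0.0127). Mcm4 was at 311, 308 and 329 CPM, then 350, 358 and 399 CPM, then 373, 355 and 380 CPM, so that both Snai1 groups lay above empty vector and overlapped each other. The Mcm4 change was 0.22 (SE 0.06, edgeR adjusted p = 0.0129), and its call was lost without empty vector replicate 1 or 2 (adjusted p 0.053 and 0.0543). Mcm2 was at 274, 292 and 273 CPM, then 264, 282 and 292 CPM, then 311, 299 and 295 CPM. Wild type and empty vector overlapped for Mcm2, and the fitted change of 0.00 (SE 0.06) turned from slightly negative to 0.01 with RLE scaling. Mcm3 and Mcm5 had -0.11 and 0.05 (edgeR adjusted p 0.11 and 0.466).

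Expressed per kilobase of gene length, the ring's transcripts were far from equal in any group. Mcm3 was highest with 28.9% of the summed CPM per kilobase of the 6 subunits with empty vector, followed by Mcm6 with 25% and Mcm7 with 15%, while Mcm4, Mcm5 and Mcm2 had 10.6%, 10.5% and 9.98%. The library values of those lower 3 overlapped, with SD of 0.258 to 0.347 percentage points (n = 3). With wild-type Snai1 the share of Mcm4 was 13.3%, 12.9% and 13.5% in the 3 libraries, against 10.6%, 10.2% and 10.9%. Mcm5 was at 12.1%, 11.6% and 11.4%, against 10.3%, 10.8% and 10.6%. Mcm2 was at 10.7%, 10.8% and 10.5%, against 9.98%, 10.3% and 9.63%, so the wild-type shares were above empty vector for these subunits as well. The share of Mcm7 was 13.1%, 13% and 12.8%, against 15%, 14.9% and 15%, and the 2 sets did not overlap. Mcm6 went from a mean of 25% to 22.8%, whereas Mcm3 stayed within 28.5% and 29.2% across all 9 libraries. These shares were taken within each library, so no scaling between libraries enters them. They add up to a whole, so a share can rise where the level does not. The wild-type levels of Mcm2, Mcm5 and Mcm3 differed from empty vector by 0, 0.05 and -0.11 on the log2 scale, and none was called. With the mutant the mean shares were 11.5% for Mcm4, 24.1% for Mcm6 and 14.8% for Mcm7.

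**Figure D3:**
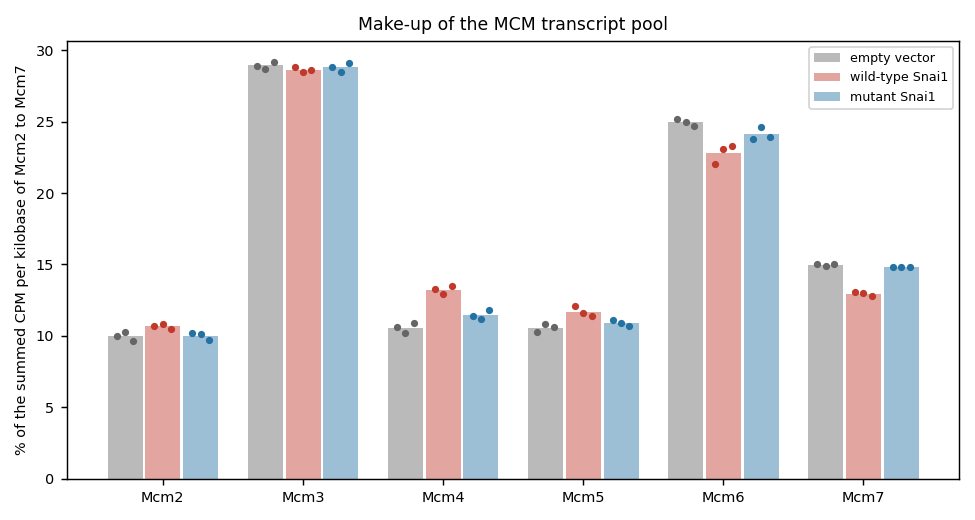
Share of each MCM subunit in the summed CPM per kilobase of Mcm2 to Mcm7, as bars of group means with 1 point per library (3 per group). Mcm2, Mcm4 and Mcm5 have a larger share and Mcm6 and Mcm7 a smaller share in the wild-type libraries than with empty vector, and Mcm3 has nearly the same share in all groups.

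Helicase activation genes went both ways, with 3 of 6 higher and 1 lower, against 25.2% and 24.3% of all tested genes. Cdc45, which travels with the active helicase, was at 78.3, 85.4 and 86.5 CPM with empty vector, 96.5, 102 and 107 CPM with wild-type Snai1 and 93.7, 88.9 and 92.6 CPM with the mutant. The groups did not overlap (0.29, SE 0.06, edgeR adjusted p = 0.00317). Gins2 was at 26.5, 26.6 and 25.6 CPM, then 30.5, 38.5 and 35.1 CPM, then 30.6, 25.9 and 28.7 CPM. Its lowest wild-type library fell among the mutant libraries but above empty vector (0.40, SE 0.10, edgeR adjusted p = 0.00577). Mcm10, a scaffold needed to start unwinding, fell: it was at 104, 113 and 119 CPM, then 74.3, 95.7 and 95.1 CPM, then 116, 114 and 117 CPM. Replicate 1 was the lowest wild-type library by far, and the change of -0.34 (SE 0.09, edgeR adjusted p = 0.0116) was -0.23 at its smallest when 1 library was left out. The GINS subunits did not move together. Gins1 was at 24, 24.3 and 24 CPM, then 20.3, 25.9 and 26.4 CPM, then 25.8, 25.5 and 26.7 CPM, with wild-type libraries on both sides of empty vector. Its fitted change of 0.01 (SE 0.10) was -0.05 with upper-quartile scaling. Gins4 had 0.15 (edgeR adjusted p = 0.046), lost in 13 of 16 alternatives (adjusted p up to 0.216), 8 of which left out 1 library, any but wild-type replicate 1. Gins3 had -0.10 (edgeR adjusted p = 0.315).

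Among the polymerases, 1 of 4 genes passed the test in polymerase alpha-primase (25%) and 1 of 5 in polymerases delta and epsilon (20%). Of all tested genes 49.4% did so, but these lists are short and the difference was not tested. In polymerase alpha-primase, Prim2, the regulatory primase subunit, was at 56, 59.7 and 57.3 CPM with empty vector, 68.5, 72.3 and 74.7 CPM with wild-type Snai1 and 68.6, 63 and 66.5 CPM with the mutant. Empty vector was lowest in every library, and the wild-type rise was 0.32 (SE 0.06, edgeR adjusted p = 0.00164). The other subunits did not pass: Pola2 was at 109, 120 and 120 CPM, then 89.2, 115 and 114 CPM, then 119, 124 and 108 CPM, a change of -0.13 that rested mostly on wild-type replicate 1 and was -0.02 without it. Pola1 and Prim1, the catalytic subunits of polymerase and primase, had 0.04 and 0.02 (edgeR adjusted p 0.667 and 0.891). In polymerases delta and epsilon, Pold3, an accessory subunit of polymerase delta, was at 85.7, 89.4 and 90.4 CPM, then 63.9, 76 and 73 CPM, then 78.5, 81.5 and 76.3 CPM. Here the mutant lay between the other groups and no groups overlapped (-0.32, SE 0.07, edgeR adjusted p = 0.00364). Pold1, the catalytic subunit, was at 119, 139 and 127 CPM, then 114, 123 and 118 CPM, then 141, 146 and 130 CPM, with wild type and empty vector overlapping (-0.11, edgeR adjusted p = 0.205). Pold2, Pole and Pole2 had -0.04, 0.05 and -0.08, none past the threshold.

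The clamp rose and the subunits of its loader split, with 2 of these 6 genes higher and 1 lower. That is 50% called, near the 49.4% of all tested genes. Pcna, the ring that holds polymerases on DNA, had a log2 fold change of 0.29 (SE 0.07, edgeR adjusted p = 0.00496) and was at 126 to 137 CPM with empty vector and 149 to 170 CPM with wild-type Snai1. Rfc4 was at 44.4, 47.7 and 44.7 CPM with empty vector, 35.9, 34 and 34.8 CPM with wild-type Snai1 and 48.4, 46 and 52.8 CPM with the mutant. The 3 wild-type libraries were close together and below all others (-0.39, SE 0.07, edgeR adjusted p = 0.00111). Rfc5 went the other way, at 51.8, 52.7 and 52.4 CPM, then 58.3, 70 and 69.7 CPM, then 57.6, 53.1 and 55.3 CPM (0.34, SE 0.08, edgeR adjusted p = 0.00461). Rfc1, Rfc2 and Rfc3, the other loader subunits, had 0.03, -0.16 and -0.04 and did not pass the test.

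Of the RPA complex, which coats single-stranded DNA, 1 of 3 subunits rose, near the 25.2% of all tested genes called higher. Rpa1, the large DNA-binding subunit, was at 137, 136 and 142 CPM with empty vector, 170, 152 and 159 CPM with wild-type Snai1 and 149, 144 and 138 CPM with the mutant. Wild-type libraries were highest throughout, with replicate 1 at the top (0.21, SE 0.06, edgeR adjusted p = 0.00976). Rpa3, the smallest subunit, was at 23.1, 26.5 and 22.8 CPM, then 21, 22.9 and 24.4 CPM, then 26.9, 22.8 and 26 CPM, overlapping in all groups (-0.09, SE 0.10, edgeR adjusted p = 0.486). Rpa2 had 0.02. In chromatin assembly and histone mRNA processing, 0 of 3 genes were called by edgeR, and 0 had an unadjusted p under 0.05. Of all tested genes 49.4% were called and 55.5% had such an unadjusted p. Chaf1b, a subunit of the histone chaperone CAF-1, was at 112, 115 and 118 CPM, then 118, 124 and 132 CPM, then 125, 122 and 126 CPM (0.11, SE 0.05, edgeR adjusted p = 0.105). Without wild-type replicate 1 Chaf1b passed the threshold (edgeR adjusted p = 0.0168). Slbp, which binds the stem-loop of histone mRNAs, was at 89, 84.4 and 81.2 CPM, then 88.7, 91.3 and 92.3 CPM, then 89.3, 89.6 and 94.1 CPM (0.10, edgeR adjusted p = 0.175), and Chaf1a had 0.08.

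Mutant Snai1 against empty vector asks how much of the response needs the intact residue that contacts Lsd1. No replication gene was called higher or lower by edgeR's quasi-likelihood test (lowest adjusted p 0.98), and DESeq2 called 0 as well. Of all tested genes 0.00801% were called higher, which is 1 gene, and 0 lower. At an unadjusted p under 0.05 there were 10 members (22.7%, against 4.83% of all tested genes), and DESeq2 gave 9. These were Mcm4, Rrm2, Prim2, Fen1, Mcm5, Cdt1, Lig1, Tyms and Pcna with values above 0, and Pold3 below. The smallest p-values belonged to Mcm4 (log2 fold change 0.22, SE 0.06), Rrm2 (0.24, SE 0.07), Prim2 (0.19, SE 0.06) and Fen1 (0.17, SE 0.06), with unadjusted edgeR p of 0.00457, 0.00575, 0.00954 and 0.013. The count of 10 was 19 without wild-type replicate 1 (all tested genes 1635, against 603) and 3 without mutant replicate 1 (all tested genes 270), and 18 when only the 6 libraries compared were fitted (all tested genes 1563).

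The values of the 44 genes nevertheless lay mostly on the upper side. The fitted change was above 0 for 37 of 44, with a median of 0.10 on the log2 scale (all genes 0) and a range from -0.17 to 0.24. In 21 of 44 genes (47.7%) every mutant library lay above every empty vector library, where 8.53% of all tested genes did so. Every mutant library lay below every empty vector library for 1 gene, Pold3, against 9.04% of all genes. All 6 ring subunits were among the 21, as were Orc1, Cdc6, Cdt1, Cdc45, Gins1, Prim2, Pold2, Rfc3, Rfc5, Fen1, Lig1, Rrm2, Tk1, Chaf1b and Slbp. The genes share the same 6 libraries and are not independent, and no test was made of the share. Leaving out 1 empty vector or mutant library gave 21 to 29 genes, with 11.8% to 16.6% of all tested genes doing so, and RLE, upper-quartile and library-total scaling gave 20 or 21.

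By library, the median of the 44 genes relative to the empty vector mean was -0.04, 0.02 and 0 in empty vector replicates 1 to 3. It was 0.12, 0.06 and 0.11 on the same log2 scale with the mutant, and 0.02, 0.10 and 0.11 with the wild type. The spread differed more than the medians, since wild-type libraries held genes far above and far below 0. The summed level of the 6 MCM genes was 2440, 2510 and 2520 CPM with empty vector, 2730, 2650 and 2700 CPM with the mutant and 2220, 2340 and 2500 CPM with wild-type Snai1. Mutant sums were thus above all others and wild-type sums reached into the range of empty vector. Over all 44 genes the summed level was 6100 to 6340 CPM with empty vector, 6540 to 6770 CPM with the mutant and 6130 to 6770 CPM with the wild type. Empty vector libraries enter both comparisons, so the values of wild type and mutant against empty vector are not independent.

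**Figure D4:**
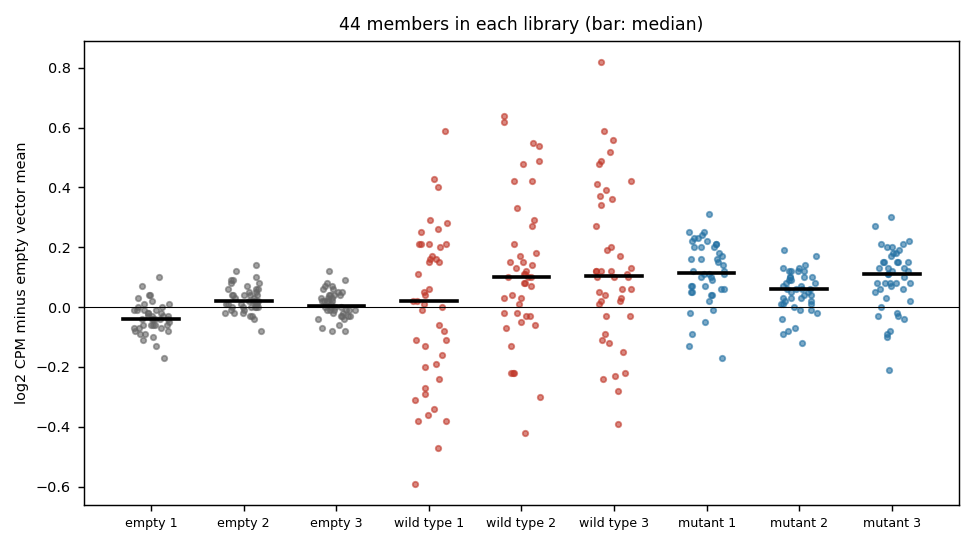
Each point is 1 of the 44 genes in 1 library, as log2 CPM minus the mean of the 3 empty vector libraries, with a bar at the library's median. Mutant libraries have medians of 0.06 to 0.12 with a narrow spread, and wild-type libraries have medians of 0.02 to 0.11 with a wide one.

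Wild-type against mutant Snai1 is the direct test of the difference between the Snai1 vectors, which gave overlapping Snai1 levels. Of the 44 genes 10 were higher with the wild type, 7 were lower and 27 did not pass edgeR's test, with a median of 0.00. For comparison, 24.5% of all tested genes were called higher, 23.4% lower and 47.9% in either direction, and 38.6% of the 44 were called. The higher genes were Orc1 (0.42), Orc6 (0.39), Gins2 (0.29), Gins4 (0.20), Rfc5 (0.25), Rpa1 (0.16), Fen1 (0.38), Rrm1 (0.33), Rrm2 (0.25) and Tk1 (0.38), as log2 fold changes with SE of 0.06 to 0.13. The lower genes were Mcm3 (-0.21), Mcm6 (-0.28), Mcm7 (-0.40), Mcm10 (-0.38), Pold1 (-0.23), Pole2 (-0.23) and Rfc4 (-0.49). The smallest adjusted p in edgeR were 0.000109 for Mcm7, 0.000246 for Rfc4, 0.000329 for Fen1 and 0.00123 for Rrm1. Rfc4 was at the far end, with wild-type libraries at 34 to 35.9 CPM and mutant libraries at 46 to 52.8 CPM.

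The mutant values set these genes apart in different ways. For Mcm3, the most abundant ring subunit per length, wild-type libraries were at 609, 636 and 680 CPM, empty vector at 680, 695 and 708 CPM and mutant at 755, 725 and 754 CPM. Mutant libraries were all above empty vector, the wild-type libraries were at or below it, and the change against empty vector was -0.11 (edgeR adjusted p = 0.11) with the wild type and 0.10 (edgeR adjusted p = 0.98) with the mutant. Pole2, an accessory subunit of polymerase epsilon, was at 29.7, 32 and 30.6 CPM with wild-type Snai1, 34.8, 30.7 and 32.2 CPM with empty vector and 37.3, 33.2 and 37.8 CPM with the mutant. Mcm4 and Lig1 had no difference between the vectors beyond the spread, with 0.00 (SE 0.06) and 0.01 (SE 0.06).

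The direction of this split depended on the scaling and on single libraries. Upper-quartile scaling gave 5 higher and 14 lower (26.3% higher) and library totals 6 and 12 (33.3%), against 58.8% higher in the TMM fit, and the median of the 44 was -0.06 with either. The count of higher genes was 5 without wild-type replicate 3 or mutant replicate 2, and 6 without mutant replicate 3. Without wild-type replicate 1 there were 14 higher and 7 lower genes. Calls of 9 genes held in all 16 alternative fits: Fen1, Rrm1, Tk1 and Orc6 as higher, and Mcm3, Mcm6, Mcm7, Mcm10 and Rfc4 as lower. Those of Orc1, Gins2, Gins4, Rfc5, Rpa1, Rrm2, Pold1 and Pole2 were lost in some. The edgeR adjusted p then reached 0.0727 for Orc1, 0.115 for Gins2, 0.118 for Gins4, 0.0748 for Rfc5, 0.245 for Rpa1, 0.0572 for Rrm2, 0.0729 for Pold1 and 0.117 for Pole2. Rpa1 lost its call without any 1 library except wild-type replicate 2. Orc1 lost it without wild-type replicate 2 or 3 or mutant replicate 1 or 2, and Rrm2 without wild-type replicate 3 or mutant replicate 2. Gins2 lost it without empty vector replicate 1, wild-type replicate 2 or 3 or mutant replicate 2 or 3, and Rfc5 without those wild-type or mutant libraries. Leaving out mutant replicate 1 or 3 ended the call of Gins4, mutant replicate 1 or 2 that of Pold1, and wild-type replicate 3 or mutant replicate 1 or 3 that of Pole2. Against empty vector, 17 of the 21 calls held in all 16 alternatives.

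Other genes of the pathway also went both ways. Of 36 further replication genes, 13 rose and 8 fell with wild-type Snai1 against empty vector, with a median log2 fold change of 0.12. These calls are 58.3% of the list, where 25.2% of all tested genes were called higher and 24.3% lower, together 49.4%. Timeless, of the fork protection complex, fell by 0.50, Clspn, the checkpoint mediator Claspin, rose by 0.49, and Pole3, a small subunit of polymerase epsilon, rose by 0.47. Of 34 further nucleotide synthesis genes 4 rose and 9 fell (38.2% called), with a median of -0.07. Impdh1, an enzyme of guanine nucleotide synthesis, fell by 0.83 and Gart, an enzyme of purine synthesis, fell by 0.41 on the log2 scale. Impdh1 was at 66.7, 65.1 and 65 CPM with empty vector, 32.1, 37 and 41.8 CPM with wild-type Snai1 and 67.3, 68.7 and 64.9 CPM with the mutant, so wild-type libraries were far below both other groups. Against the mutant, 8 and 6 of the 36 replication genes and 4 and 13 of the 34 nucleotide genes were higher and lower with the wild type. That is 38.9% and 50% called, against 47.9% of all tested genes.

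Regulators upstream of replication had a median size of change of 0.39 on the log2 scale, against 0.14 for the 44 genes and 0.29 for all tested genes. Of 31 tested E2F and G1/S regulators 13 rose and 10 fell with wild-type Snai1 against empty vector (74.2% called, against 49.4% of all tested genes). E2f2, an activating E2F, was at 27, 26.3 and 29.2 CPM with empty vector, 7.87, 6.41 and 7.72 CPM with wild-type Snai1 and 24.3, 27.1 and 26.6 CPM with the mutant (log2 fold change -1.91 for the wild type). Ccnd1, a D-type cyclin that promotes passage through G1, was at 172, 155 and 176 CPM, then 838, 628 and 665 CPM, then 209, 179 and 236 CPM (2.08). Cdkn1a, the cell cycle inhibitor p21, was at 498, 476 and 454 CPM, then 1020, 1170 and 1280 CPM, then 580, 552 and 673 CPM (1.28). In all of them the wild-type libraries were clear of both other groups. Of 39 tested mitosis genes 9 rose and 4 fell (33.3% called), with a median of 0.03. Among the rises were Spc25 (0.56), Mad2l1 (0.38) and Nuf2 (0.33). Ube2c (-0.49), Nusap1 (-0.47) and Bub1b (-0.30), chosen after their values were seen, were among the falls. The wild-type libraries disagreed on this list: its median relative to the empty vector mean was -0.25 in replicate 1 and 0.15 and 0.17 in replicates 2 and 3, with summed levels of 4260, 5590 and 5770 CPM, against 4840 to 5260 CPM with empty vector. With the mutant, 0 genes of these 4 companion lists were called by edgeR. At an unadjusted p under 0.05 there were 2 of 36 other replication genes, 3 of 34 other nucleotide genes, 5 of 31 regulators and 1 of 39 mitosis genes. These are 5.56%, 8.82%, 16.1% and 2.56%, against 4.83% of all tested genes. Every mutant library lay above every empty vector library for 4, 6, 6 and 6 genes in the same order. That is 11.1%, 17.6%, 19.4% and 15.4%, against 8.53% of all tested genes. Every mutant library lay below for 2.78%, 2.94%, 3.23% and 7.69%, against 9.04% of all tested genes. These shares were not tested.

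Per kilobase of gene length, the 44 genes spanned 8.54 CPM per kilobase (Gins3) to 241 CPM per kilobase (Mcm3) with empty vector, with a median of 39.7. Mcm3, Mcm6, Rfc2, Mcm7 and Pcna were the highest at 241, 208, 134, 124 and 103 CPM per kilobase. Gins3, Orc1 and Cdc6 were the lowest at 8.54, 10.1 and 12.5. Orc1 was thus among the least abundant transcripts of the set and had the top fitted rise, whereas the genes of highest level per length included the called falls of Mcm6 and Mcm7 and the rise of Pcna. The 44 genes lie on 14 chromosomes, and 18 of them overlap another annotated gene, 12 of these a protein-coding one. Among genes called in a comparison that have a protein-coding partner, Orc1 overlaps Prpf38a, Mcm7 overlaps Ap4m1 and 3 microRNA genes, Cdc45 overlaps Ufd1, Gins2 overlaps Gse1, Rfc4 overlaps Eif4a2, Rpa1 overlaps Smyd4, Fen1 overlaps Tmem258, Lig1 overlaps Zswim9, Tk1 overlaps Afmid and Pole2 overlaps Klhdc1. Whether strand was used in the counting was not given in the sources used here, so reads of such pairs may not be told apart.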

How the data were processed

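RNA was measured in 9 libraries of HPC7 cells, 3 per group, prepared with a stranded poly(A) TruSeq kit. The table deposited by the authors holds unnormalized counts for each gene, which featureCounts made on mm10, per the submitters' processing notes. Those notes list limma 3.29.12 and edgeR 3.15.0 too. Aligner, annotation and strand setting are not given in the sources used here. Gene lengths for CPM per kilobase come from the same deposited table, in which 0 columns belonged to other samples.

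Counts were fitted in R 4.3.3 with edgeR 4.0.16: filterByExpr (minimum count 10), TMM, and 1 robust quasi-likelihood fit over all 9 libraries. The 12484 genes kept had a biological coefficient of variation of 10.7%. Symbols were matched through RefSeq (25275 of 27179 identifiers, 44 of 44 members, 205 of 205 companion and marker names). Promoters came from RefSeq, GRCm38.p6. Log2 CPM by library used a prior count of 2.

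The members and lists were chosen with earlier results of these data known. Values in all libraries are given for the 2 members of each role group with the smallest adjusted p in wild type against empty vector, those called against the majority direction, up to 4 with the smallest p in each other comparison, and the 2 closest to no change. Companion lists name up to 3 by adjusted p (1 such gene is not reported here); members singled out beyond this were chosen after their values were seen. Alternatives were RLE, upper-quartile and library-total scaling, no filter, DESeq2 1.42.0, a replicate block, a fit of 6 libraries, and leaving out each library. Two-sided exact permutation of 3 against 3 cannot go below 0.1, so none was used.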

Additional observations from a re-analysis of the deposited data

How the results depend on the processing

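Of the 21 calls with wild-type Snai1 against empty vector, 17 held in all 16 alternatives, and of the 17 against the mutant, 9 did. The cause of the changes below was not tested. The median of the 44 genes, wild type against empty vector, was 0 with upper-quartile scaling. Wild type against mutant, upper-quartile scaling gave 5 higher, 14 lower and a median of -0.06, library totals gave 6, 12 and -0.06, the fit of only the 6 libraries compared gave 6 higher, and leaving out 1 library gave 5 to 14 higher and 5 to 9 lower. Over all tested genes, mutant against empty vector, only the 6 libraries gave 13 higher and 17 lower, DESeq2 6 and 4, and leaving out 1 library 1 to 28 higher and 0 to 34 lower. The upper values came without wild-type replicate 1. That library is in neither group of this contrast and enters it through the filter, the TMM scaling and the shared spread. Members with every mutant library below every empty vector library numbered 0 with library totals and 1 to 2 with 1 library left out. Values near 0 changed sign: Mcm2, wild type against empty vector, was 0.01 with RLE and with DESeq2 and -0.02 to 0.04 with 1 library left out. Gins1 was -0.05 with upper-quartile scaling, -0.04 with library totals, -0.01 without the filter and -0.05 to 0.12 with 1 library left out. Mcm4, wild type against mutant, was 0.01 with RLE and with DESeq2 and -0.06 to 0.03 with 1 library left out. Whether replicate numbers pair the libraries is not in the labels. Deviations of same-numbered libraries correlated at -0.0873 to 0.21, with 2 of 9 pairs above 0.1. Those of other-numbered libraries correlated at -0.165 to 0.117, with 1 of 18 pairs above 0.1. Of 9 libraries 4 matched best with their own number. With 3 libraries per group such a check cannot settle whether they are paired. With a replicate block, 13 members were higher and 5 lower against empty vector (without Cdc6, Gins4 and Lig1), 8 and 6 against the mutant (without Gins2, Pole2 and Rpa1), and 0 were called for the mutant against empty vector. Members had at least 351 counts in each library, and changes under 0.15 on the log2 scale were not called.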
